A study of Mus musculus with 6 samples.

Results

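The clustered protocadherins are cadherin-like adhesion proteins of the neuronal surface, encoded in mouse by 3 tandem gene clusters named alpha, beta and gamma. All 58 genes of the clusters in the deposited table, of 56359 rows in all, were taken by symbol: 14 alpha genes (Pcdha and Pcdhac), 22 beta genes (Pcdhb) and 22 gamma genes (Pcdhga, Pcdhgb and Pcdhgc). Their levels were measured by RNA sequencing of total RNA in 6 C57BL/6 samples labelled as embryo at embryonic day 12. Wild type and Tmem216-/- samples numbered 3 each. Tmem216 encodes a membrane protein of the transition zone at the base of the primary cilium, and the study asked how its loss affects the transcriptome. The labels name the genotype but neither the design of the allele nor the part dissected, and do not say whether a sample is a single embryo. Differences are therefore judged against a spread between samples that may be partly technical.

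Each alpha or gamma gene consists of its own large variable exon and promoter, spliced to a set of constant exons that all genes of that cluster share. Beta genes have a variable exon and no constant exons. The variable exon encodes the extracellular cadherin repeats, the membrane segment and part of the cytoplasmic tail, and the constant exons encode the common end of the tail. The proteins pair in the plane of the membrane and recognise identical combinations on other membranes, which gives neurons a surface identity used in dendrite self-avoidance. Most variable promoters are chosen stochastically in each neuron, with the help of CTCF, cohesin and DNA methylation. The 5 C-type genes (Pcdhac1, Pcdhac2, Pcdhgc3, Pcdhgc4 and Pcdhgc5) lie at the downstream ends of the alpha and gamma arrays, and several are expressed more uniformly in the cell types that use them.

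In mm10 the genes lie on the plus strand of chromosome 18. The alpha cluster spans 257 kb (36930184 to 37187661), the beta cluster 259.5 kb (37264938 to 37524479) and the gamma cluster 180.1 kb (37661793 to 37841873) in the GENCODE M21 annotation. All 58 identifiers are in that annotation. The table uses the symbol Pcdha11 for a pair of neighbouring genes. ENSMUSG00000102206 is Pcdha11 in RefSeq as well, and ENSMUSG00000007440, which lies directly upstream, is Pcdha10 in RefSeq by the Entrez number in the table; it is given below by its identifier. Pcdhgb8 is annotated as a polymorphic pseudogene.

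The shared exons bear on every alpha and gamma value. In GENCODE M21, 2860 exonic bases belong to all 14 alpha genes and 2116 to all 22 gamma genes. The part of a gene's exonic bases that another gene of the cluster also holds was 38.0% to 54.9% for alpha genes and 27.8% to 66.8% for gamma genes. Reads from these bases cannot be placed on a gene by sequence, so the level of each alpha or gamma gene depends on how the authors' estimation divided them. Neighbouring values within those clusters are therefore not independent measurements. Beta genes share no exonic base except Pcdhb21 and Pcdhb22, whose ends overlap over 9.67% and 6.88% of their exonic bases. At most 4.05% of the 75-base windows in any other beta transcript recur in another member.

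The targeted gene checked the labels, and some cell markers differed between the samples. Levels are given as TPM, the deposited transcript abundance scaled for transcript length and to the same total in every sample. Tmem216 was 30.97, 30.7 and 17.4 TPM in the wild type samples and 2.25, 0.51 and 1.39 TPM in the Tmem216-/- samples. Its log2 fold change was -3.55 (limma adjusted p = 0.0266). An exact permutation test (two-sided) gave 0.1, which no comparison of 3 with 3 samples can go below. With each sample left out the fold change ran from -3.81 to -3.25, and the adjusted p from 0.0381 to 0.189. All 10 cardiac muscle markers rose in Tmem216-/- (adjusted p under 0.05), where their sum ran from 846 to 2224 TPM against 38.3 to 58.9 TPM in wild type. With no filter, without wild type replicate 1 or 3, or without Tmem216-/- replicate 3, 0 of them passed, and without Tmem216-/- replicate 2, 3 passed of the 8 tested, although the samples of the 2 genotypes did not overlap for any of the 10. Nppb and Mybpc3 were under 1 TPM in every wild type sample. They met the 1 TPM filter only through Tmem216-/-, where they were high, and left the test when a Tmem216-/- sample was dropped. The 5 caudal markers tested had negative fold changes but 0 passed the test, with the sum over the 6 listed at 42.0 to 133 TPM in wild type and 14.3 to 38.9 TPM in Tmem216-/-. The sum of 6 hepatocyte markers ranged from 198 to 2282 TPM in wild type and from 96.4 to 955 TPM in Tmem216-/-. All 12 neuron markers and all 10 neural progenitor markers were tested and none was at 0 in every sample. Their sums are given beside the gamma cluster. In these bulk samples fewer cells of a type and less RNA per cell cannot be told apart.

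Gamma genes made up most of the clustered protocadherin RNA. Summed over the 22 gamma genes the level was 170.4, 156 and 264 TPM in the wild type samples and 191, 187 and 184 TPM in the Tmem216-/- samples. Beta genes summed to 18.3, 14.8 and 19.5 TPM in wild type and to 18.1, 17.2 and 18.3 TPM in Tmem216-/-. Alpha genes summed to 7.96, 6.34 and 9.12 TPM in wild type and to 8.43, 7.01 and 8.37 TPM in Tmem216-/-. The gamma cluster thus held 88.1% of the sum of all members on average over the 6 samples, the beta cluster 8.25% and the alpha cluster 3.65%. The median gamma gene, at 4.37 TPM, was 6.45 times the median beta gene (0.68 TPM) and 8.14 times the median alpha gene (0.54 TPM). All 22 gamma genes had a mean of at least 1 TPM, while 13 of 14 alpha genes and 14 of 22 beta genes had a mean below it.

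**Figure D1:**
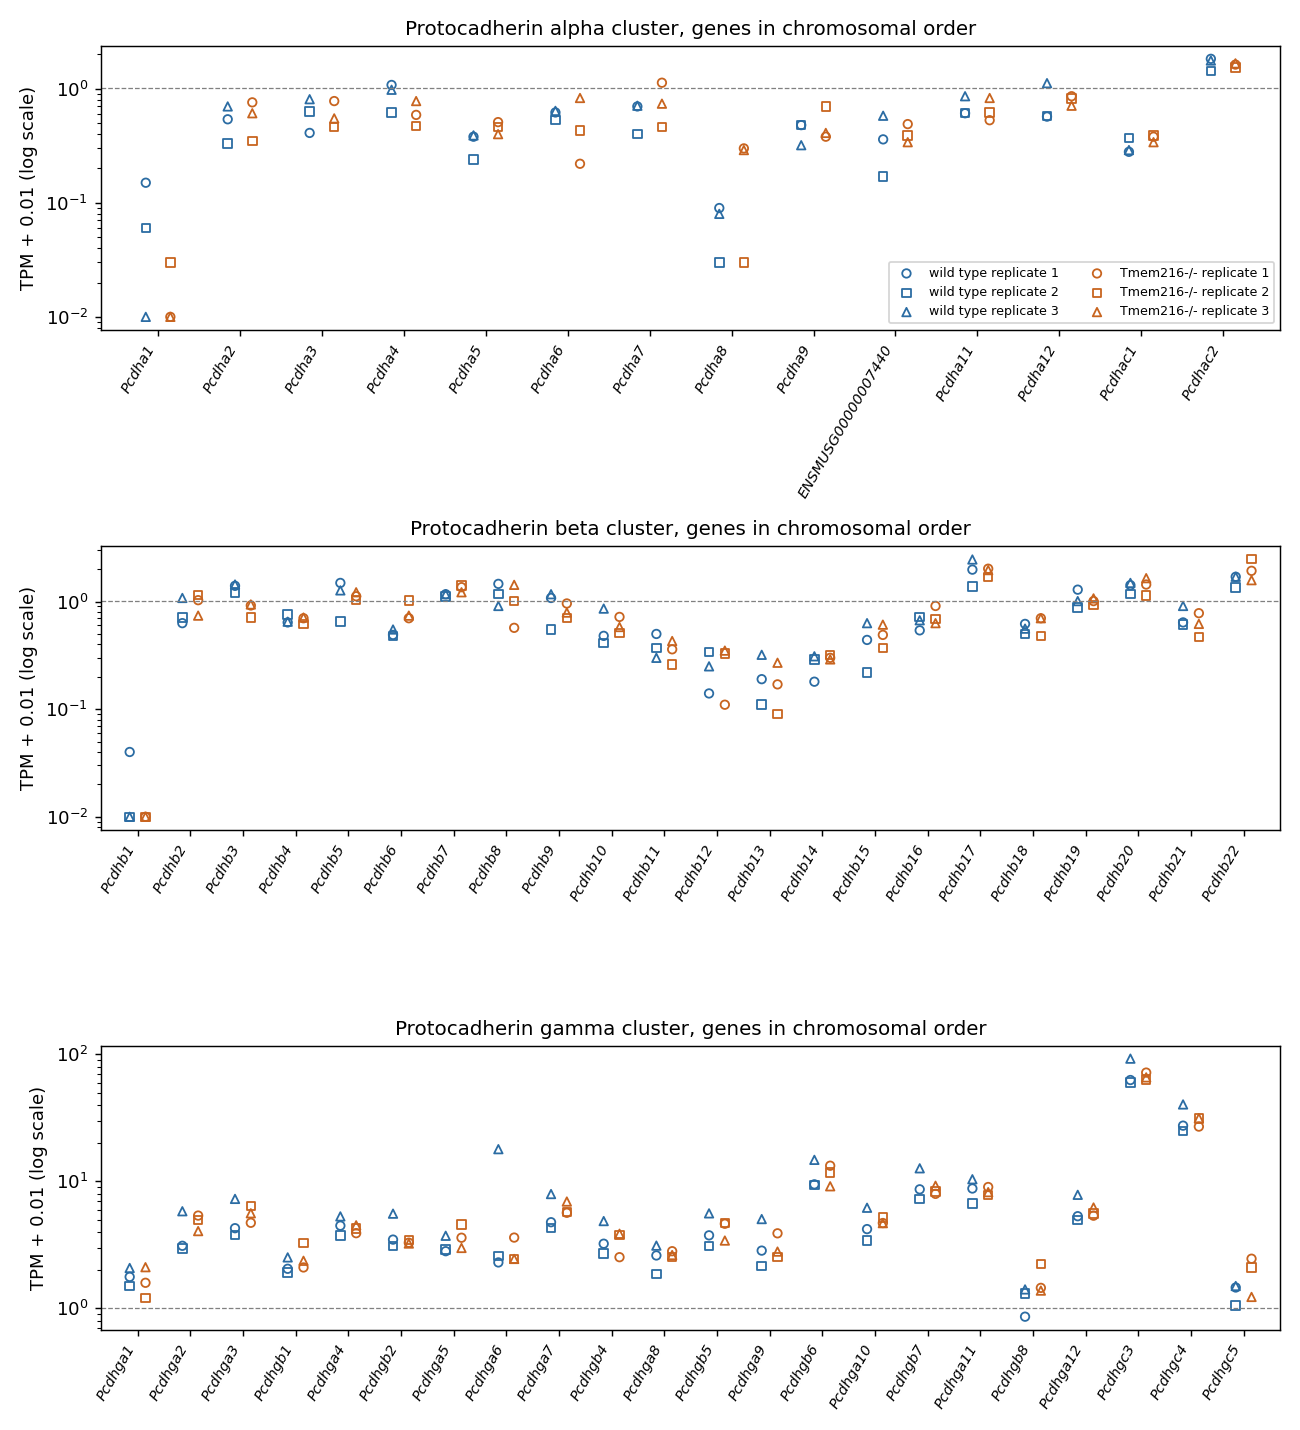
Level of each of the 58 clustered protocadherin genes in each of the 6 samples, as TPM + 0.01 on a log axis, with genes in chromosomal order; blue symbols are wild type, orange Tmem216-/-, circles, squares and triangles replicates 1, 2 and 3, and the dashed line marks 1 TPM.  Gamma genes lie above 1 TPM almost throughout, Pcdhgc3 and Pcdhgc4 stand above the other members, and a single triangle of Pcdhga6 at 17.9 TPM lies far above the other values of that gene.

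Among the C-type genes, Pcdhgc3 and Pcdhgc4 were the most abundant members. Pcdhgc3, whose protein binds the Wnt scaffold Axin1 and takes part in dendrite growth, was 62.9, 60.1 and 92.6 TPM in the wild type samples and 71.9, 63.4 and 65.9 TPM in the Tmem216-/- samples. Wild type replicate 3 was highest, and the other 5 samples of both genotypes lay together. Pcdhgc4, the gamma gene on which the survival of many neurons depends, was 27.5, 25.0 and 40.4 TPM in the wild type samples and 27.0, 31.2 and 31.4 TPM in the Tmem216-/- samples. Its values overlapped between the genotypes in the same way, with wild type replicate 3 again highest. Pcdhgc3 was above Pcdhgc4 in all 6 samples, by 2.03 to 2.66 times, and Pcdhgc4 was above the next gene by mean level, Pcdhgb6, in all 6, by 2.03 to 3.44 times. The mean of Pcdhgc3 was 16.0 times that of the median gamma A or B gene, and the mean of Pcdhgc4 was 6.99 times it.

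The remaining C-type genes were low. Pcdhgc5, which is known to appear late in brain development, was 1.45, 1.04 and 1.49 TPM in the wild type samples and 2.45, 2.09 and 1.22 TPM in the Tmem216-/- samples. Tmem216-/- replicates 1 and 2 were above every wild type sample and replicate 3 was not, so the groups overlapped. Pcdhac2, which is needed for the even spacing of serotonergic axons, was 1.82, 1.42 and 1.76 TPM in the wild type samples and 1.62, 1.53 and 1.66 TPM in the Tmem216-/- samples. All 6 values of Pcdhac2 were above 1 TPM, and it exceeded every other alpha gene in every sample. Pcdhac1 was 0.27, 0.36 and 0.28 TPM in the wild type samples and 0.37, 0.38 and 0.33 TPM in the Tmem216-/- samples, among the lowest of the alpha cluster.

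The 19 alternate gamma genes (12 gamma A and 7 gamma B) covered a narrower range of mean levels, from 1.43 to 11.3 TPM. Pcdhgb6 led them with 9.47, 9.37 and 14.8 TPM in the wild type samples and 13.3, 11.8 and 9.14 TPM in the Tmem216-/- samples. It was above Pcdhgb7 in 5 of 6 samples, and Pcdhgb7 above Pcdhga11 in 4 of 6, so the order of these neighbours was not fixed. Pcdhga1, the most upstream gamma gene, was 1.76, 1.49 and 2.07 TPM in the wild type samples and 1.58, 1.20 and 2.10 TPM in the Tmem216-/- samples. Pcdhgb8 was 0.85, 1.30 and 1.40 TPM in the wild type samples and 1.44, 2.22 and 1.37 TPM in the Tmem216-/- samples; the table lists a length of 2796 bases for it, against 4615 exonic bases in GENCODE M21. Gamma A genes had a median of 4.55 TPM and gamma B genes one of 3.68 TPM, and the ranges of the subfamilies overlapped (1.70 to 8.49 and 1.43 to 11.3 TPM). Across the 19 genes, place along the array and mean level had a Spearman correlation of 0.31, a description over genes that share constant exons.

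Pcdhga6 held the most uneven values of the gamma cluster. It was 2.29, 2.57 and 17.9 TPM in the wild type samples and 3.60, 2.44 and 2.44 TPM in the Tmem216-/- samples. Wild type replicate 3 was 6.72 times the mean of the other 5 samples, which ran from 2.29 to 3.60 TPM. Its direct neighbours Pcdhga5 and Pcdhga7 were 3.72 and 7.94 TPM in that sample, 1.11 and 1.45 times the mean of the others. The log2 fold change of Pcdhga6 was -0.68 with all samples and 0.15 without wild type replicate 3, so its direction rested on that sample.

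Alternate alpha genes were low. Their 12 mean levels ran from 0.035 TPM to 0.77 TPM, and Pcdhac2 was 3.05 times their median. Pcdha12 was 0.56, 0.57 and 1.11 TPM in the wild type samples and 0.85, 0.81 and 0.70 TPM in the Tmem216-/- samples. Pcdha4 was 1.07, 0.61 and 0.97 TPM in the wild type samples and 0.58, 0.46 and 0.77 TPM in the Tmem216-/- samples, with overlapping groups. These genes came next after Pcdhac2 by mean level, and each was above the other in 3 of 6 samples. Pcdha1, at the upstream end, was 0.14, 0.05 and 0 TPM in the wild type samples and 0, 0.02 and 0 TPM in the Tmem216-/- samples. Pcdha8 was 0.08, 0.02 and 0.07 TPM in the wild type samples and 0.29, 0.02 and 0.28 TPM in the Tmem216-/- samples, where replicates 1 and 3 were higher and replicate 2 equalled the lowest wild type sample. Pcdha5 was 0.37, 0.23 and 0.38 TPM in the wild type samples and 0.50, 0.45 and 0.39 TPM in the Tmem216-/- samples, groups that did not overlap but were separated only in the last decimal listed. With no read numbers in the table, a value of this size cannot be given a counting error, and a listed 0 may be a failed estimate.

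Beta genes were low, with means of at most 1.91 TPM. Pcdhb17 was 1.97, 1.37 and 2.45 TPM in the wild type samples and 2.01, 1.69 and 1.95 TPM in the Tmem216-/- samples. Pcdhb22, the most downstream beta gene, was 1.69, 1.34 and 1.69 TPM in the wild type samples and 1.92, 2.49 and 1.57 TPM in the Tmem216-/- samples. Pcdhb20 was 1.41, 1.16 and 1.48 TPM in the wild type samples and 1.43, 1.13 and 1.64 TPM in the Tmem216-/- samples. Pcdhb17 and Pcdhb22 were among the 3 highest beta genes in every sample. At the other end Pcdhb1 was 0.03 TPM in wild type replicate 1 and listed at 0 in the other 5 samples. Pcdhb13 ran from 0.08 to 0.31 TPM and Pcdhb12 from 0.10 to 0.34 TPM over the 6 samples. Low beta genes lay side by side in the middle of the array, where Pcdhb11, Pcdhb12, Pcdhb13 and Pcdhb14 had means of 0.36, 0.24, 0.18 and 0.27 TPM; this run was picked out after its values were seen. Over the whole array, place and mean level had a Spearman correlation of 0.15 across the 22 genes.

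Shares of each cluster's sum were compared between the genotypes, as a description with no test. Pcdhgc3 held 36.8% of the gamma sum in wild type and 35.8% in Tmem216-/-, and Pcdhgc4 held 15.8% and 16.0% (means of 3 samples each). The 3 gamma C-type genes together held 53.4% ± 2.28 in wild type and 52.8% ± 0.99 in Tmem216-/- (SD, n = 3), gamma A genes 28.4% ± 2.59 and 28.5% ± 0.26, and gamma B genes 18.3% ± 0.32 and 18.7% ± 1.19. No gamma gene's mean share differed between genotypes by more than 1.75 percentage points, and the gene at that limit was Pcdhga6 (3.26% in wild type). Rank correlations of shares between pairs of samples were 0.81 to 0.98 across gamma genes, 0.81 to 0.94 across beta genes and 0.59 to 0.95 across alpha genes. Between samples of different genotype they ran from 0.81 to 0.98, 0.81 to 0.94 and 0.62 to 0.95. In the alpha cluster, Pcdhac2 held 21.5% in wild type and 20.3% in Tmem216-/-, and the largest difference was that of Pcdha4 (11.2% and 7.55%). In the beta cluster the largest differences were those of Pcdhb3 (7.68% and 4.72%) and Pcdhb22 (8.99% and 11.2%).

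No clustered protocadherin passed the test for a difference in Tmem216-/-. The test was limma, run on log2(TPM + 1), which understates the change of low genes, for every gene that reached 1 TPM in 3 or more of the 6 samples. Of the members, 32 passed this filter: 1 alpha, 9 beta and all 22 gamma genes. Of these, 0 changed at an adjusted p under 0.05 (Benjamini-Hochberg over 16411 genes), against 0.104% of all genes tested (17 genes). At an unadjusted p under 0.05 there were 0 as well, against 4.46% of all genes tested. Fold changes were higher for 16 and lower for 16 members, and the lowest adjusted p among them was 0.983. The median log2 fold change was -0.03 for Pcdhac2, the only alpha gene tested, 0.01 for the 9 beta genes and 0.01 for the 22 gamma genes, beside -0.01 over all genes tested. With no filter, so that all 58 members entered, 31 were higher and 27 lower, the medians were 0.05, 0.02 and 0.01, and 0 members had an unadjusted p under 0.05.

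**Figure D2:**
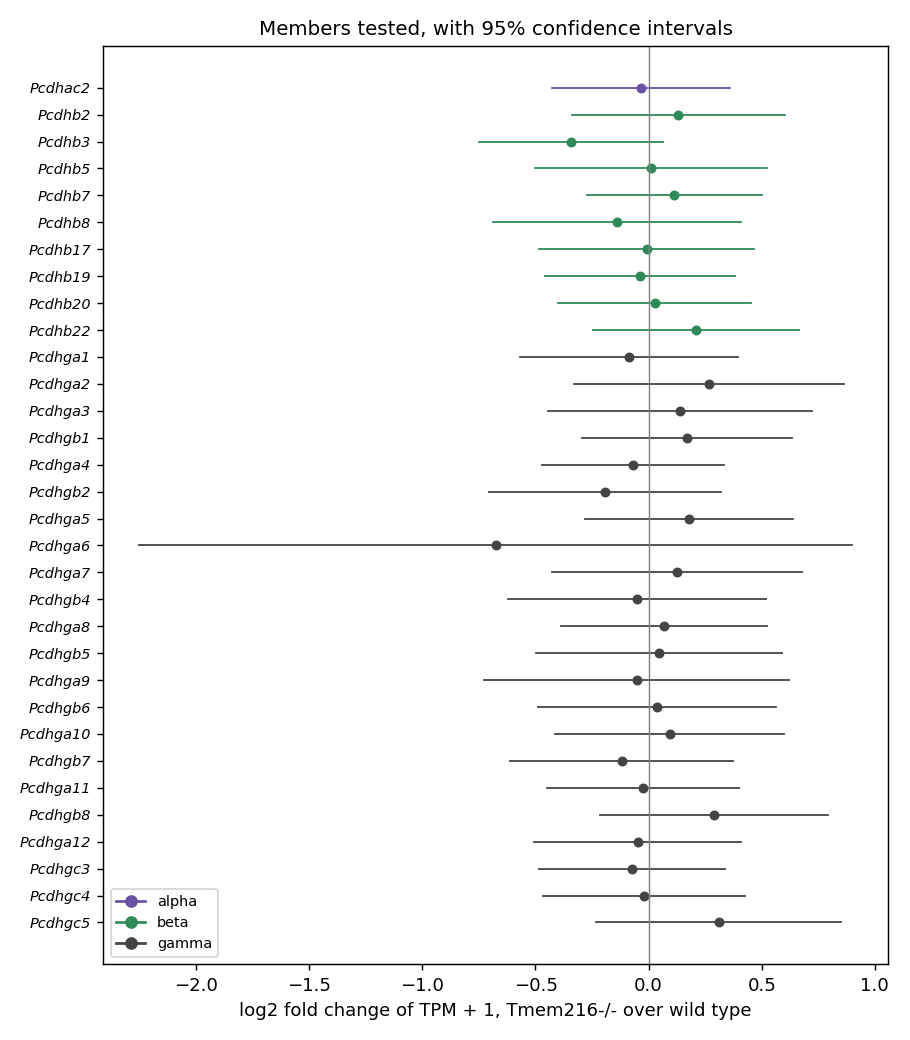
Log2 fold change of TPM + 1, Tmem216-/- over wild type, for the 32 members tested (points) with 95% confidence intervals from limma (lines), coloured by cluster and in chromosomal order. Every interval includes 0, and that of Pcdhga6 is the widest.

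The intervals show what size of change these samples could have hidden. Pcdhgc3 had a log2 fold change of -0.07 (71.9 ± 18.0 against 67.1 ± 4.37 TPM, mean ± SD, n = 3), with a 95% confidence interval of -0.48 to 0.34, or 0.72 to 1.26 times wild type on the TPM + 1 scale. Pcdhgc4 was at -0.02, with an interval of -0.47 to 0.42, and Pcdhac2 at -0.03, with one of -0.43 to 0.36. Among the gamma genes tested the largest positive fold changes were those of Pcdhgc5 at 0.31 (-0.23 to 0.85) and Pcdhgb8 at 0.29 (-0.22 to 0.79), and among the 9 beta genes tested those of Pcdhb22 at 0.21 (-0.24 to 0.66) and Pcdhb2 at 0.13 (-0.34 to 0.60). With no filter Pcdhb6, at 0.27, was above both beta genes. Their sizes depended on single samples: Pcdhgc5 was at 0.18 without Tmem216-/- replicate 1 and 0.49 without replicate 3, Pcdhgb8 at 0.15 and Pcdhb22 at 0.09 without Tmem216-/- replicate 2, Pcdhgb8 at 0.17 without wild type replicate 1, and Pcdhb2 at 0.06 and 0.22 without wild type replicate 1 and Tmem216-/- replicate 3. The largest negative ones were Pcdhga6 at -0.68 (-2.25 to 0.90) and Pcdhgb2 at -0.19 (-0.70 to 0.32), and Pcdhb3 at -0.34 (-0.75 to 0.07) and Pcdhb8 at -0.14 (-0.69 to 0.41). On the TPM + 1 scale the interval of Pcdhga6 reached down to 0.21 times wild type and up to 1.86 times, so a large fall of that gene could not be told from no change.

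The values behind these fold changes overlapped between the genotypes, apart from those of Pcdhb3 and Pcdhb6. Pcdhb8 was 1.45, 1.17 and 0.90 TPM in the wild type samples and 0.56, 1.00 and 1.42 TPM in the Tmem216-/- samples. Pcdhb2 was 0.62, 0.70 and 1.07 TPM in the wild type samples and 1.02, 1.14 and 0.73 TPM in the Tmem216-/- samples. Pcdhgb2 was 3.47, 3.10 and 5.56 TPM in the wild type samples and 3.28, 3.45 and 3.23 TPM in the Tmem216-/- samples, so wild type replicate 3 alone was high and the other 5 samples lay within a narrow range.

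Among the 32 members tested, Pcdhb3 had the lowest unadjusted limma p. It was 1.39, 1.20 and 1.43 TPM in the wild type samples and 0.91, 0.70 and 0.93 TPM in the Tmem216-/- samples, so each Tmem216-/- sample lay below each wild type sample, and the mean ratio was 0.63. Its limma p was 0.0869 before adjustment and 0.983 after it. It passed the filter only through wild type, where all 3 samples were above 1 TPM, so its place among the tested genes was tied to its being lower in Tmem216-/-. Among the alternatives in which it was tested, only eBayes without a trend gave it an unadjusted p under 0.05 (0.0195, adjusted p = 0.870). In the other direction, Pcdhb7 was 1.16, 1.11 and 1.16 TPM in the wild type samples and 1.35, 1.40 and 1.21 TPM in the Tmem216-/- samples (log2 fold change 0.11), and Pcdhb6 was 0.48, 0.47 and 0.54 TPM and 0.69, 1.01 and 0.73 TPM. Each pair of groups was again separate, and Pcdhb6, Pcdhb7 and Pcdha5 were named after their values were seen. The filter left out Pcdhb6, whose mean ratio was 1.63. With no filter, limma gave Pcdhb6 (log2 fold change 0.27) and Pcdhb3 each an unadjusted p of 0.0627 and an adjusted p of 0.925, in opposite directions. In all, every Tmem216-/- sample was above every wild type sample in 3 of 58 members, against 3.82% of the 30598 genes above 0 in a sample, and below in 1 of 58, against 3.92%. Both counts are near the background.

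Gamma levels were uneven among the wild type samples, where wild type replicate 3 stood apart. That sample held the highest wild type value of all 22 gamma genes and the highest of all 6 samples for 17 of them. Its gamma sum was 1.62 times the mean of the other wild type samples, or 1.53 times without Pcdhga6. The same ratio was 1.28 for the alpha sum and 1.18 for the beta sum. Per gene the ratio of wild type replicate 3 to the mean of the other 5 samples ran from 0.90 (Pcdhgc5) to 1.78 (Pcdhga9) in the gamma cluster outside Pcdhga6, with a median of 1.42 over the 22 genes. Wild type replicate 2 was the lowest wild type sample for 19 of the 22. Over all genes tested the median difference of wild type replicate 3 from the other samples was 0.05 on the log2 scale, and over gamma genes it was 0.45. By contrast the 3 Tmem216-/- gamma sums lay between 184 and 191 TPM (187 ± 3.21, against 197 ± 59.0 in wild type, mean ± SD, n = 3), inside the wild type range.

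**Figure D3:**
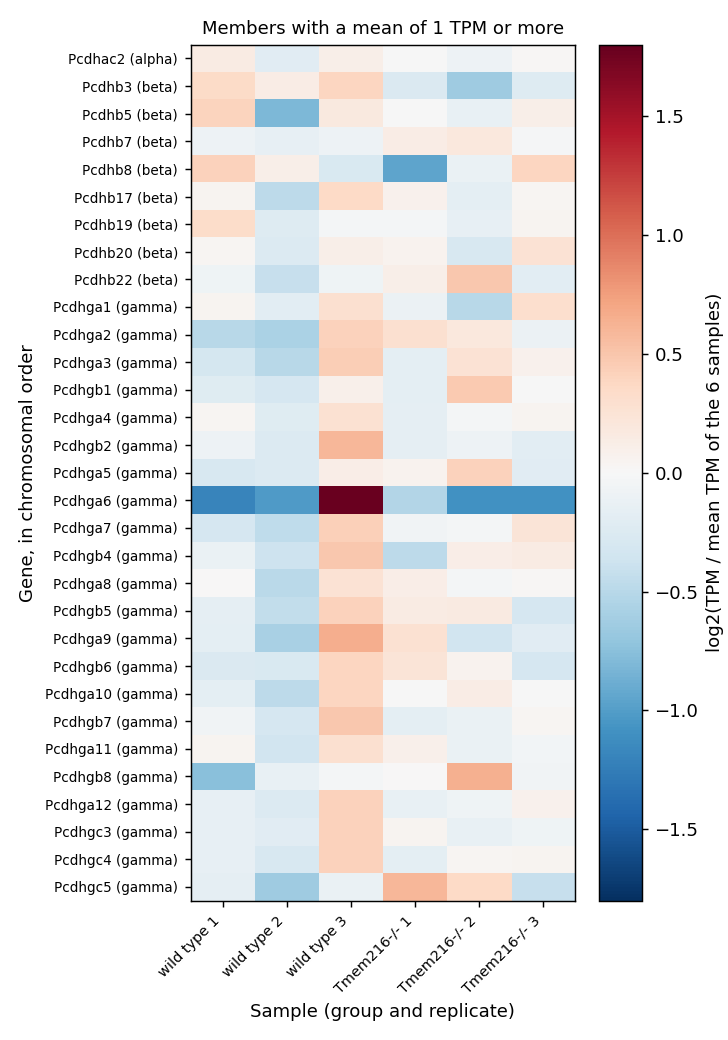
Level of each of the 31 members with a mean of at least 1 TPM in each sample, relative to its mean over the 6 samples (log2 scale; red above, blue below), in chromosomal order with the cluster in brackets. The column of wild type replicate 3 is above the mean for most gamma genes and that of wild type replicate 2 below it.

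The neuron marker sum had the same highest and lowest samples as the gamma sum, and so did the alpha, beta and neural progenitor sums. The sum of 8 protease genes described below did as well, so this order was not particular to neuron markers. The 12 neuron markers summed to 1911, 1428 and 2651 TPM in wild type and to 1784, 2102 and 1907 TPM in Tmem216-/-. The neuron sum was highest in wild type replicate 3, at 1.59 times the mean of the other wild type samples, and lowest in wild type replicate 2. Tubb3, a neuronal tubulin gene, held 46.3% of the sum in wild type replicate 3. Over the single markers the ratio to the mean of the other wild type samples ran from 0.82 to 1.97 with a median of 1.34. The ratios per gamma gene above were to the mean of the other 5 samples, so those medians are not on the same base. Wild type replicate 3 was the highest wild type sample for 10 of 12 markers. Map2 was higher in wild type replicate 1, and Elavl4 was lowest in wild type replicate 3. Of the 12 markers 7 had positive and 5 negative fold changes with a median of 0.04, and 0 passed the test. Map2, a dendrite protein gene, was at 0.31 (limma adjusted p = 0.760). It was the only marker of the 12 at an unadjusted limma p under 0.05 (0.00937), against 4.46% of all genes tested. Every Tmem216-/- sample was above every wild type sample for 1 of the 12 (Map2) and below for 0. The shares over all genes above 0 in a sample were 3.82% and 3.92%. The gamma sum came to 8.92%, 10.9% and 9.98% of the neuron sum in wild type and to 10.7%, 8.91% and 9.67% in Tmem216-/-, or 9.93% ± 0.99 and 9.76% ± 0.89 (SD, n = 3). The 10 neural progenitor markers summed to 935, 820.3 and 1107 TPM and to 911, 1061 and 987 TPM in the same order. The ratio of wild type replicate 3 to the mean of the other wild type samples was 1.26 for this sum. Over the single progenitor markers it ran from 0.74 (Fabp7) to 2.19 with a median of 1.62. Wild type replicate 3 was the highest wild type sample for 9 of 10. The gamma sum came to 18.2%, 19.0% and 23.9% of the progenitor sum in wild type and to 20.9%, 17.7% and 18.7% in Tmem216-/-. Wild type replicate 3 also had a low sum of hepatocyte markers (198 TPM, against 1845 and 2282 TPM in the other wild type samples). The part of these differences in the gamma levels was not tested.

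**Figure D4:**
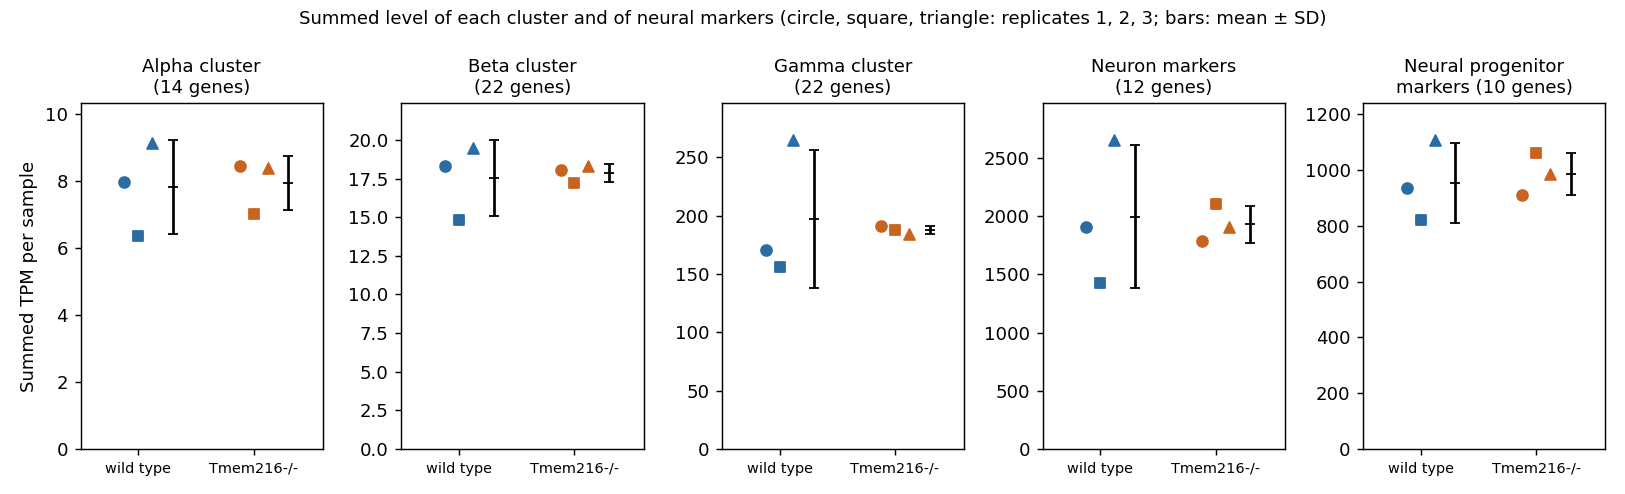
Summed TPM per sample of the alpha, beta and gamma clusters and of the neuron and neural progenitor marker lists (points; circles, squares and triangles are replicates 1, 2 and 3), with the mean ± SD of each group of 3 beside them. Every axis starts at 0. The wild type triangle is highest and the wild type square lowest in each panel, and the Tmem216-/- points of the 3 clusters lie within the wild type range.

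The gamma comparison depended on that library. Without wild type replicate 3, 21 of 22 gamma genes were higher in Tmem216-/- and the median log2 fold change was 0.20. The single gene below 0 was Pcdhga1 at -0.01, and the ratio of mean gamma sums was 1.15 in place of 0.95. The neuron sum then had a ratio of 1.16, and 12 of 12 neuron markers were higher with a median of 0.19. In limma 0 members passed in that fit. Of the 1 alpha, 7 beta and 22 gamma genes tested, Pcdhga2 alone had an unadjusted p under 0.05 (log2 fold change 0.52, adjusted p = 0.539). Over all genes in that fit, 1262 of the 16114 tested were under 0.05. Pcdhga2 was 3.10, 2.96 and 5.81 TPM in the wild type samples and 5.37, 4.97 and 4.05 TPM in the Tmem216-/- samples, so with all samples the groups overlapped. Without wild type replicate 2 the gamma median was -0.13, with 17 of 22 lower, and again 0 members passed.

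Genes that act on or with the clustered protocadherins did not pass the test either. Among 12 genes for promoter choice (CTCF, cohesin and its loaders and release factors, and Hnrnpu), 0 changed. Of these, 11 were higher and 1 lower, with a median log2 fold change of 0.11. This direction rested on wild type replicate 3: without it 3 were higher and 9 lower, the median was -0.07, and again 0 changed. Their sum was 1084, 1245 and 878 TPM in the wild type samples and 1114, 1099 and 1113 TPM in the Tmem216-/- samples, lowest in wild type replicate 3. Hnrnpu alone held 47.9% of the sum in that sample. In that list the cohesin gene Stag1 was at 0.28 with all samples and -0.016 without wild type replicate 3. The cohesin regulators Pds5a and Pds5b went from 0.28 and 0.24 to -0.04 and -0.07, and the cohesin subunit gene Rad21 from 0.07 to 0.02. Pds5a was 59.0, 84.7 and 36.2 TPM in the wild type samples and 68.7, 69.9 and 67.9 TPM in the Tmem216-/- samples, so wild type replicate 3 was lowest there.

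Of 12 genes for DNA methylation and silencing, 9 were lower and 3 higher with a median of -0.07, and 0 changed. Cdca7, a partner of the remodeller Hells, was at -0.17, the maintenance methyltransferase gene Dnmt1 at -0.19, the corepressor gene Trim28 at -0.19 and the methyltransferase gene Dnmt3b, which methylates variable promoters, at -0.20. Dnmt3b was 8.93, 10.01 and 8.98 TPM in the wild type samples and 7.60, 7.73 and 8.60 TPM in the Tmem216-/- samples. Every Tmem216-/- sample was below every wild type sample for 3 of the 12 genes, Dnmt3b, Cdca7 and Trim28, against 3.92% of all genes above 0 in a sample, and each had a limma adjusted p of 0.983.

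Of 19 genes for cytoplasmic partners, 8 were higher and 11 lower with a median of -0.01, and 0 changed. Marcks, an actin regulator downstream of gamma protocadherins, was 238, 220.1 and 249.8 TPM in the wild type samples and 261, 280.2 and 271 TPM in the Tmem216-/- samples (log2 fold change 0.20, adjusted p = 0.983). It was the only gene of the 19 at an unadjusted p under 0.05, against 4.46% of all genes tested. The receptor kinase gene Ret was at -0.22, the WAVE complex gene Nckap1 at 0.18 and Axin1 at -0.14. Every Tmem216-/- sample was above every wild type sample for 1 of the 19 genes (Marcks) and below for 1 (Ret). The shares over all genes above 0 in a sample were 3.82% and 3.92%. Of 8 protease genes that shed and cleave protocadherins, 2 were higher and 6 lower, and 0 changed; without wild type replicate 3, 5 were higher and 3 lower. The gamma-secretase gene Psen2 was 11.2, 10.1 and 9.76 TPM in the wild type samples and 8.44, 7.45 and 6.70 TPM in the Tmem216-/- samples (-0.41, adjusted p = 0.983). It was the only gene of the 8 at an unadjusted p under 0.05, against 4.46% of all genes tested. Psen2 was also the only gene of the 8 whose groups did not overlap. Its value was -0.45 when wild type replicate 3 was left out. The other named genes rested on that sample: the sheddase gene Adam10 went from 0.19 to 0.0085 without it, the gamma-secretase gene Aph1a from -0.29 to 0.08 and the sheddase gene Adam17 from 0.13 to -0.02.

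The protocadherins outside the clusters gave the same count. Of 12 listed, 10 were tested, 6 were higher and 4 lower with a median of 0.04, and 0 changed; without wild type replicate 3, 4 were higher and 6 lower with a median of -0.04. Pcdh18 was 47.5, 48.0 and 45.1 TPM in the wild type samples and 53.0, 51.4 and 49.2 TPM in the Tmem216-/- samples (0.12), while Pcdh11x was at 0.44, Pcdh1 at -0.22 and the X-linked epilepsy gene Pcdh19 at -0.22. Their sum of 114 to 126 TPM in wild type and 121.0 to 122 TPM in Tmem216-/- varied less over the samples than the gamma sum, and wild type replicate 3 was 1.10 times the mean of the other wild type samples. Whether that ratio differs from the gamma one was not tested.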

How the data were processed

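The authors deposited TPM per gene for each of 6 samples, 3 per genotype. Per the submitters' processing notes, CASAVA 1.8, HISAT2, StringTie and RSEM were used with mm10; the annotation is not given in the sources used here. Each deposited column has the same sum, so the read depth cannot be told and no model of counts was fitted. A pair of further deposited columns, equal to the group means, was not used. Members and gene lists were chosen with earlier results of these data known. The 16411 genes that reached 1 TPM in 3 or more of the 6 samples were fitted together as log2(TPM + 1) in limma (lmFit, then eBayes with its trend option; two-sided, Benjamini-Hochberg, threshold 0.05), and members were read from that fit. Lists are described by counts and medians. Named members are the 3 highest and 3 lowest by mean in each cluster, the C-type genes, the 2 largest rises and falls per cluster, those with an unadjusted p under 0.05, and up to 4 genes with the smallest p from each other list (cell marker lists are given as sums). Members named otherwise were picked after their values were seen. The erythroid, mesenchyme and forebrain marker sums ranged from 15017 to 36909, 934 to 1078 and 93.3 to 169.6 TPM over the samples. Alternatives were other pseudocounts, filters, scalings and eBayes settings, the replicate number as a block, and each sample left out. GENCODE M21 (GRCm38) gave exons and transcripts. The software was R 4.3.3 with limma 3.58.1, and Python 3.11.15 with scipy 1.17.1 and pandas 2.3.3.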

Additional observations from a re-analysis of the deposited data

How the results depend on the processing

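The count of 0 members that passed in limma held under all 16 alternatives, with no adjusted p below 0.511. Over all genes the 17 calls became 0 with no filter (1207 at an unadjusted p under 0.05) and 0 to 20 with each sample left out (0 without wild type replicate 1, 1 without wild type replicate 3, 5 and 4 without Tmem216-/- replicates 2 and 3). With a pseudocount of 0.1 TPM and no filter, chosen after the data were seen, the alpha median was 0.12 over 14 genes. With each sample left out the gamma median ran from -0.13 to 0.20. Replicate numbers did not pair the samples (same-number correlations of 0.02, -0.09 and 0.10), and with the replicate number as a block 25 genes and 0 members passed.

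Of 222 repeats over the 15 named members tested, 17 changed direction, in 10 members and to values no larger than 0.18. The cause was not tested. Many of the 222 could not change direction, because the filter, the eBayes settings and the replicate block leave a gene's fold change as it was. All the changes came from fits with a sample left out, except that of Pcdhb17 under quantile normalization. The count of 17 in 222 is therefore no measure of stability. With each sample left out, the log2 fold change ran from -0.10 to 0.010 for Pcdhac2, -0.15 to 0.12 for Pcdhb17, -0.044 to 0.11 for Pcdhb20 and -0.29 to 0.025 for Pcdhb8. It ran from -0.19 to 0.12 for Pcdhgc3, -0.15 to 0.18 for Pcdhgc4, -0.071 to 0.24 for Pcdhgb6 and -0.21 to 0.033 for Pcdhga1. For Pcdhga6 it ran from -1.12 to 0.15 and for Pcdhgb2 from -0.33 to 0.013, both highest without wild type replicate 3. Quantile normalization put Pcdhb17 at 0.0048. A filter at 5 TPM left no alpha or beta gene. Read depth is unknown, so the counting error of levels well under 1 TPM cannot be estimated.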
